A study of Homo sapiens with 8 samples.

Results

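The genes described here encode the subunits of the Mediator complex, and their mRNAs were measured in AGO2-bound RNA and in total RNA of A431 cells, a human cutaneous squamous cell carcinoma line. They were chosen by their symbols (MED followed by a number, CDK8, CDK19 and CCNC), and the family was picked from these data because MED30 had the largest rise of enrichment of all genes. Of 33 such symbols in the RefSeq gene table, 32 had a probe on the array, and 30 had a probe well above background on all 4 input arrays. These 30 members are among 13662 genes that met the same requirement, and the brightest passing probe on the input arrays stood for each gene. MED12L and MED31 did not pass, with 1 probe each that was well above background on none of the arrays, and MED28 had no probe matched through a RefSeq accession. Just inside the limit, the MED29 probe had a processed signal between 36.9 and 40.1 on the input arrays. Just outside it, the MED31 probe had between 14.7 and 22.9.

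Cells were transfected with the negative control miRNA (miR-NC) or with miR-634, each at 10 nM, and were lysed after 24 h. RNA recovered by immunoprecipitation with an anti-AGO2 antibody (RIP) and total RNA (input) were hybridized on 1-color Agilent arrays. The 4 groups are the input and the RIP of each kind of cells, with 2 arrays per group. The sample labels name a normal rabbit IgG antibody for the input arrays, whereas the study's methods describe them as total RNA, and they are read here as input. Nothing states whether the duplicates were separate transfections, so p-values measure the spread between these arrays, which may be technical. AGO2 is the Argonaute protein that holds a miRNA in the RNA-induced silencing complex (RISC), and an mRNA paired with that miRNA is recovered with it. The study addressed which mRNAs are bound by AGO2 when miR-634 is abundant. RefSeq (GRCh38.p14) places the mature miRNA on chromosome 17, at chr17:66787132-66787153 on the plus strand. Its sequence is shown because it is the agent that separates both kinds of cells, with the seed (bases 2 to 8), the part that leads pairing with mRNAs, in capitals.
hsa-miR-634: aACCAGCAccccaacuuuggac

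Mediator is a large complex that carries signals from DNA-bound transcription factors to RNA polymerase II. Its head and middle modules contact the polymerase, its tail module receives most activators, MED14 forms the backbone that joins them, and a separable kinase module (CDK8 or CDK19, cyclin C, MED12 and MED13) restrains its contact with the polymerase. As background, the complex is present in essentially all cells, and its subunits are mostly encoded by mRNAs of housekeeping type. The cells matched their label in that all 10 squamous epithelial markers examined, including EGFR, KRT5, KRT14 and TP63, were well above background on the 4 input arrays. TP63 was dim among them, with a highest processed signal of 182, against 91.5 for the endothelial marker CDH5. Of 12 markers of leukocytes, endothelium, fibroblasts and melanocytes with a probe, 6 were well above background on none of the input arrays. The others were dim but well above background, VWF, CDH5 and PMEL on all 4, PTPRC and PDGFRB on 3 and COL1A1 on 1. Spots well above background made up 45.6% to 45.8% of an input array, 33.6% and 34.5% for RIP of miR-NC cells and 40.0% for both RIP arrays of miR-634 cells. With 2 arrays a group, the precision of every value is limited by their number. Lack of overlap between groups of 2 arrays also occurred for members that were not called, so it adds little to a call. Levels are log2 intensities relative to the array's 75th percentile, so that 0 is the level of a fairly bright probe and negative levels are dimmer. Enrichment is the RIP level minus the input level on this log2 scale, and the change of enrichment subtracts the miR-NC value from the miR-634 value. Each SD of enrichment, and each value by array number, matches RIP and input arrays by that number. The numbers did not pair the arrays, so these SDs would differ under the other matching and can understate the spread.

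MED30, a subunit of the head region that is found in metazoan Mediator, led to the choice of this family, so its values are a description without a test. Its single probe (NM_080651) had levels of -0.01 and 0.01 in the miR-NC input, -1.43 and -1.48 in the miR-NC RIP, -0.23 and -0.31 in the miR-634 input, and 3.89 and 3.78 in the miR-634 RIP. The mRNA was thus scarcer in the RIP than in the input of miR-NC cells and far more abundant in the RIP than in the input of miR-634 cells, with no overlap of any of the 4 groups. Its log2 enrichment was -1.46 ± 0.05 (SD, n = 2) with miR-NC and 4.11 ± 0.03 (SD, n = 2) with miR-634. The change of enrichment was 5.57 on the log2 scale, a 47.4-fold rise, with 5.55 from the arrays numbered 1 and 5.58 from the arrays numbered 2. Nearly all of it lay in the RIP, where the level rose 39.2-fold, while the input level was 0.828 of that in miR-NC cells. Among the 13662 genes, its enrichment ranked 555 from the lowest with miR-NC and 11 from the highest with miR-634. The gene with the next largest change of enrichment had 5.18.

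**Figure D1:**
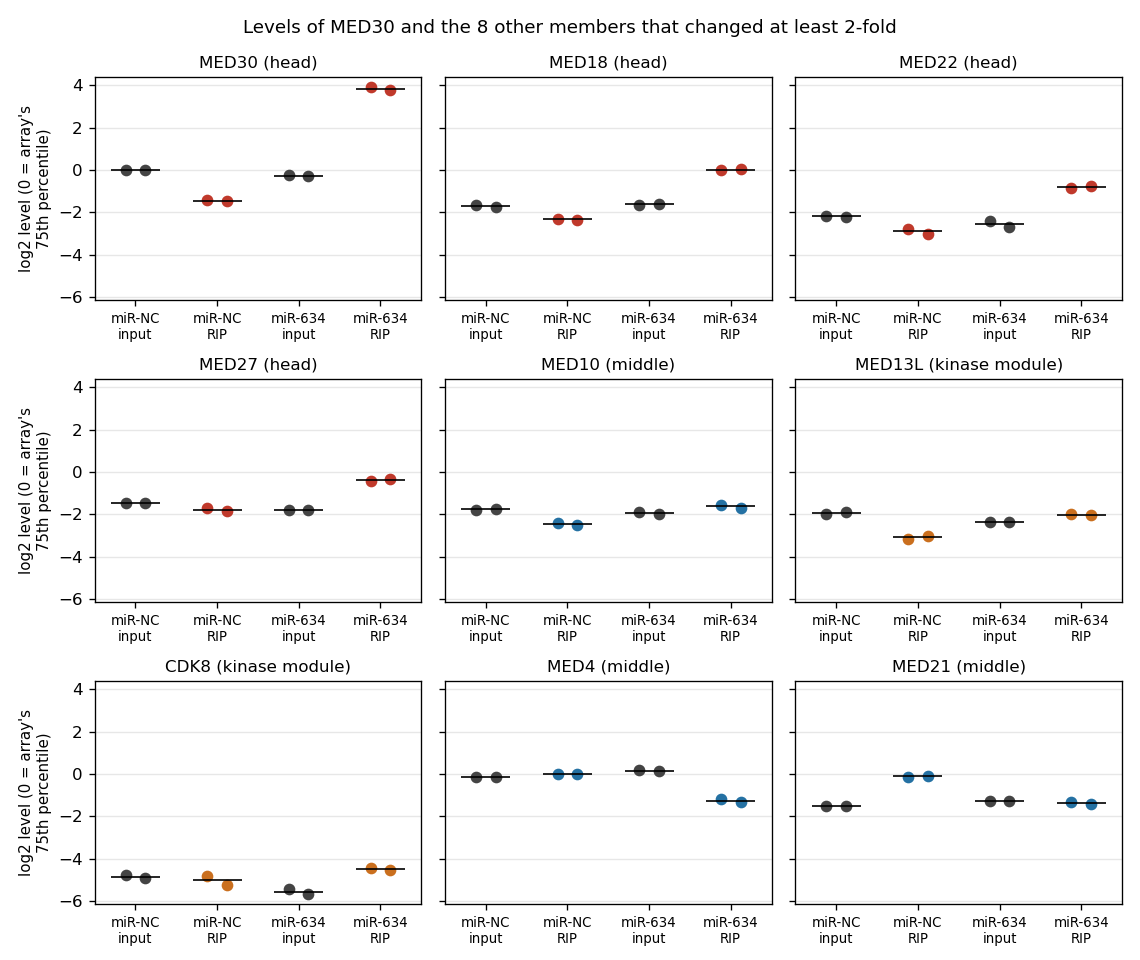
Each panel plots the log2 level (vertical axis, relative to the array's 75th percentile) of 1 Mediator gene on the 8 arrays, with 2 points for the arrays of each group and a line for their mean; input arrays are grey and RIP arrays take the color of the module. MED30 is the only one of these genes whose miR-634 RIP level lies above 3, and the RIP level is higher in miR-634 than in miR-NC cells in 7 panels and lower in those of MED4 and MED21.

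In miR-NC cells, the other 29 members spread around the level of the input. Limma (with Benjamini-Hochberg adjustment over all 13662 genes and a threshold of 0.05) called 7 of them (24.1%) higher in the RIP than in the input, where 27.2% of all genes were called higher. It called 11 (37.9%) lower, against 43.4% of all genes, and 11 were not called. Their median log2 enrichment was -0.17, against -0.21 over all genes, and ranged from -1.45 to 1.40. The shares of members called were thus near those of all genes. Higher and lower are relative to the other genes of an array, and when the arrays were scaled on the spike-in probes all 29 members were called lower than the input in these cells, as were 98.2% of all genes, while 0 members and 0.41% of all genes were called higher.

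The members highest in miR-NC RIP were MED21, MED26 and MED24. MED21, a small middle-module subunit that pairs with MED7, had levels of -1.49 and -1.51 in the input and -0.13 and -0.08 in the RIP of these cells (log2 enrichment 1.40 ± 0.045, SD, n = 2, adjusted p = 1.15e-05 by limma). MED26, which links Mediator to elongation factors, had -1.28 and -1.44 in the input and -0.28 and -0.18 in the RIP (log2 enrichment 1.13 ± 0.18, SD, n = 2, adjusted p = 6.01e-05 by limma). MED24, a tail subunit, had -2.06 on each input array and -1.04 and -1.15 in the RIP (log2 enrichment 0.96 ± 0.075, SD, n = 2, adjusted p = 6.59e-05 by limma). In each of these genes, both RIP arrays lay above both input arrays. MED25, MED11, MED20 and MED17 were also called higher, with log2 enrichments between 0.37 and 0.62. A dimmer MED20 probe had the other sign, with -0.81 in place of 0.37, and was well above background only on the 4 input arrays.

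Besides MED30, the lowest members in miR-NC RIP were the paralogs MED13 and MED13L, which join the kinase module to the core complex. MED13 had levels of -0.61 and -0.69 in the input and -2.05 and -2.15 in the RIP (log2 enrichment -1.45 ± 0.015, SD, n = 2, adjusted p = 3.65e-05 by limma). MED13L had -1.99 and -1.88 in the input and -3.15 and -3.03 in the RIP (log2 enrichment -1.15 ± 0.0039, SD, n = 2, adjusted p = 4.12e-05 by limma). The SD of its level was 0.08 in the input and 0.08 in the RIP, so the SD of its enrichment understates the spread. For both genes the RIP arrays were clearly below the input arrays. MED23 and MED1, activator-binding subunits of the tail and middle, were not well above background on either miR-NC RIP array, so only an approximate bound is given there. The mean RIP level for this bound is, per array, the higher of the probe's own level and the dimmest level that was well above background. By this bound the input was 1.36-fold higher than the RIP for MED23 and 1.34-fold higher for MED1 (adjusted p = 0.0302 and 0.034 by limma). The bound is not strict, since a probe that is not well above background can be brighter than the dimmest one that is. MED12, at -4.79 and -4.77 in the miR-NC RIP, was well above background on only 1 of these arrays. The true folds can therefore be smaller. For MED29, which was well above background on none of the RIP arrays, no fold is given under miR-NC. Under miR-634 the same approximate bound put the input 1.11-fold higher (adjusted p = 0.0794 by limma, not called).

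In miR-634 cells, 11 of the 29 members (37.9%) were called higher in the RIP than in the input by limma, where 31.2% of all genes were, and 10 (34.5%) were called lower, against 46.4% of all genes. The median log2 enrichment of the members was -0.18, against -0.24 over all genes, and it ranged from -1.51 to 1.73. With spike-in scaling 0 were called higher and 23 (79.3%) lower, against 5.06% and 84.2% of all genes. The order of the members was different from that in miR-NC cells. Across the 29 members, which share arrays and are not independent replicates, Pearson's r between the enrichment of both kinds of cells was 0.155 and Spearman's rho was 0.136. No such correlation is given for all genes, so the new order cannot be called particular to these members. Between arrays numbered 1 and 2, Pearson's r was 0.897 with miR-NC and 0.934 with miR-634. The SD of enrichment between members was 0.68 with miR-NC and 0.89 with miR-634, below the 0.88 and 1.12 over all genes. The wider spread with miR-634 was thus shared by all genes. The median SD between duplicates, matched by array number, was 0.10 and 0.08. Enrichment was called in opposite directions, with a called change, for 5 of these members (17.2%), MED18, MED22, MED27, MED10 and MED13L, all below the input in miR-NC cells and above it in miR-634 cells. Of all genes, 7.21% were called this way. The opposite order, called for 4.60% of all genes, was found for 0 members. The reversal of MED22 was not seen in its dimmer probe, which was above the input in both kinds of cells (log2 enrichment 0.56 with miR-NC and 1.54 with miR-634). MED13 was at the low end in both kinds of cells, with -1.45 under miR-NC and -1.51 under miR-634.

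**Figure D2:**
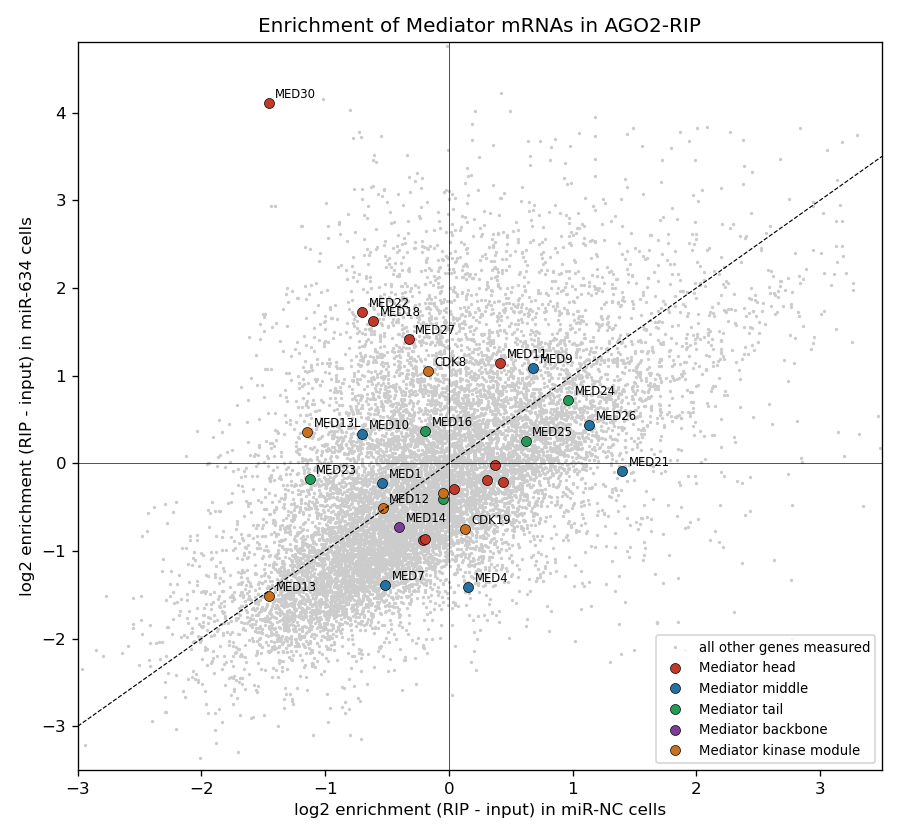
Each point is a gene, placed by its mean log2 enrichment (RIP minus input) in miR-NC cells on the horizontal axis and in miR-634 cells on the vertical axis, with Mediator members colored by module, other genes in grey and a dashed line where both are equal; 34 of the 13662 genes lie outside the axes, and crowded members near the middle carry no name. MED30 stands at the upper left edge at -1.46 and 4.11, and the 29 other members spread across the cloud of genes; with spike-in scaling, none of the 29 was called above the input in either kind of cells.

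The change of enrichment was called for 19 of the 29 other members. Limma called 7 (24.1%) higher, a share near the 24.8% of all genes, and 12 (41.4%) lower, against 34.7% of all genes. With scaling on the spike-in probes none of the 12 lower calls held and most of these members turned to a higher enrichment, whereas the 7 higher calls held. With that scaling, 19 members (65.5%) were called higher and 0 lower, against 60.4% and 1.37% of all genes. A rise or fall below is thus one against most other genes of the array. The median change of the 29 members was -0.29, against -0.18 over all genes, and it was 0.79 against 0.91 with spike-in scaling. Relative to the median gene, 13 members were above and 16 below. The log2 changes of the members that rose at least 2-fold were larger with spike-in scaling, at 3.51 for MED22, 3.31 for MED18, 2.83 for MED27, 2.58 for MED13L, 2.31 for CDK8 and 2.11 for MED10. A change of at least 2-fold with an adjusted p under 0.05 was found for 6 members upward (20.7%, against 12.8% of all genes) and 2 downward (6.90%, against 7.85%).

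The head module held the largest rises. Besides MED30, the change was called higher for 4 of its 10 other measured members, MED22, MED18, MED27 and MED11, and lower for MED8, MED17, MED20 and MED19, all of which turned upward with spike-in scaling. Such counts by module stand beside 24.8% of all genes called higher and 34.7% called lower. MED22, which pairs with MED11 at the base of the head, had levels of -2.16 and -2.22 in the miR-NC input, -2.79 and -3.0 in the miR-NC RIP, -2.41 and -2.69 in the miR-634 input and -0.87 and -0.77 in the miR-634 RIP. Its change of enrichment was 2.43 on the log2 scale (5.39-fold, standard error 0.17, adjusted p = 0.000132 by limma). A dimmer MED22 probe, for NM_181491, gave 1.97-fold. MED18, which forms part of the movable jaw of the head with MED8 and MED20, had -1.67 and -1.76 in the miR-NC input, -2.32 and -2.34 in the miR-NC RIP, -1.64 and -1.59 in the miR-634 input and -0.02 and 0.03 in the miR-634 RIP. Its change was 2.23 (4.70-fold, standard error 0.07, adjusted p = 1.23e-05 by limma), and its dimmer probe gave 4.36-fold. MED27, a subunit between head and tail, had -1.45 and -1.47 in the miR-NC input, -1.72 and -1.85 in the miR-NC RIP, -1.78 and -1.79 in the miR-634 input and -0.41 and -0.32 in the miR-634 RIP. Its change was 1.74 (3.35-fold, standard error 0.09, adjusted p = 4.61e-05 by limma). In these 3 genes the miR-634 RIP arrays lay above all other arrays. MED11 was already above the input in miR-NC cells and changed by 0.72 (adjusted p = 0.00097 by limma). The jaw partners of MED18 had changes of -0.67 for MED8 and -0.39 for MED20 (adjusted p = 0.00233 and 0.0158 by limma), and MED17, the scaffold of the head, had -0.64 (adjusted p = 0.0108). The dimmer probes of MED8 and MED20 gave smaller changes, of -0.31 and -0.04.

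Among the 7 measured members of the middle module, the change was called lower for MED4, MED21, MED7 and MED26 and higher for MED10. MED4 had levels of -0.16 and -0.15 in the miR-NC input, 0.02 and -0.02 in the miR-NC RIP, 0.18 and 0.14 in the miR-634 input and -1.17 and -1.34 in the miR-634 RIP. Its enrichment fell by 1.57 on the log2 scale (2.96-fold, standard error 0.10, adjusted p = 8.42e-05 by limma), and its dimmer probe gave -1.68. MED21 had -1.27 and -1.26 in the miR-634 input and -1.31 and -1.40 in the miR-634 RIP, so that it lost the place above the input that it had in miR-NC cells. Its enrichment fell by 1.49 (2.81-fold, standard error 0.07, adjusted p = 3.65e-05 by limma). With spike-in scaling the changes of MED4 and MED21 were -0.48 and -0.41 and no longer passed the threshold (adjusted p = 0.16 and 0.222), and those of MED7 and MED26 turned upward. MED7 and MED26 changed by -0.87 and -0.70 (adjusted p = 0.00206 and 0.00221 by limma). MED10, a conserved middle subunit, had -1.77 and -1.73 in the miR-NC input, -2.40 and -2.51 in the miR-NC RIP, -1.88 and -2.0 in the miR-634 input and -1.54 and -1.68 in the miR-634 RIP. Its change was 1.03 (2.04-fold, standard error 0.11, adjusted p = 0.000614 by limma). MED9, the partner of MED4, cannot be placed, because its duplicates differed, with -0.34 and -1.37 in the miR-634 RIP and a change of 0.89 from the arrays numbered 1 and -0.08 from the arrays numbered 2.

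In the tail module and the backbone, no member was called with a 2-fold change. Of the 5 measured tail members, MED25 and MED15 were called lower, with changes of -0.37 and -0.36 (adjusted p = 0.0287 and 0.0181 by limma) that turned upward with spike-in scaling. MED25 and MED15 are activator-binding subunits, the latter known for binding the sterol regulatory factors. MED24 changed by -0.24 and MED14 by -0.32, neither of them called. MED16 changed by 0.56 and MED23 by 0.95, also not called (adjusted p = 0.0741 and 0.153 by limma). The MED23 value rests on RIP signals that were not well above background in miR-NC cells, differed between the arrays numbered 1 and 2 (1.71 and 0.19), and had the other sign in a dimmer MED23 probe (-0.26).

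**Figure D3:**
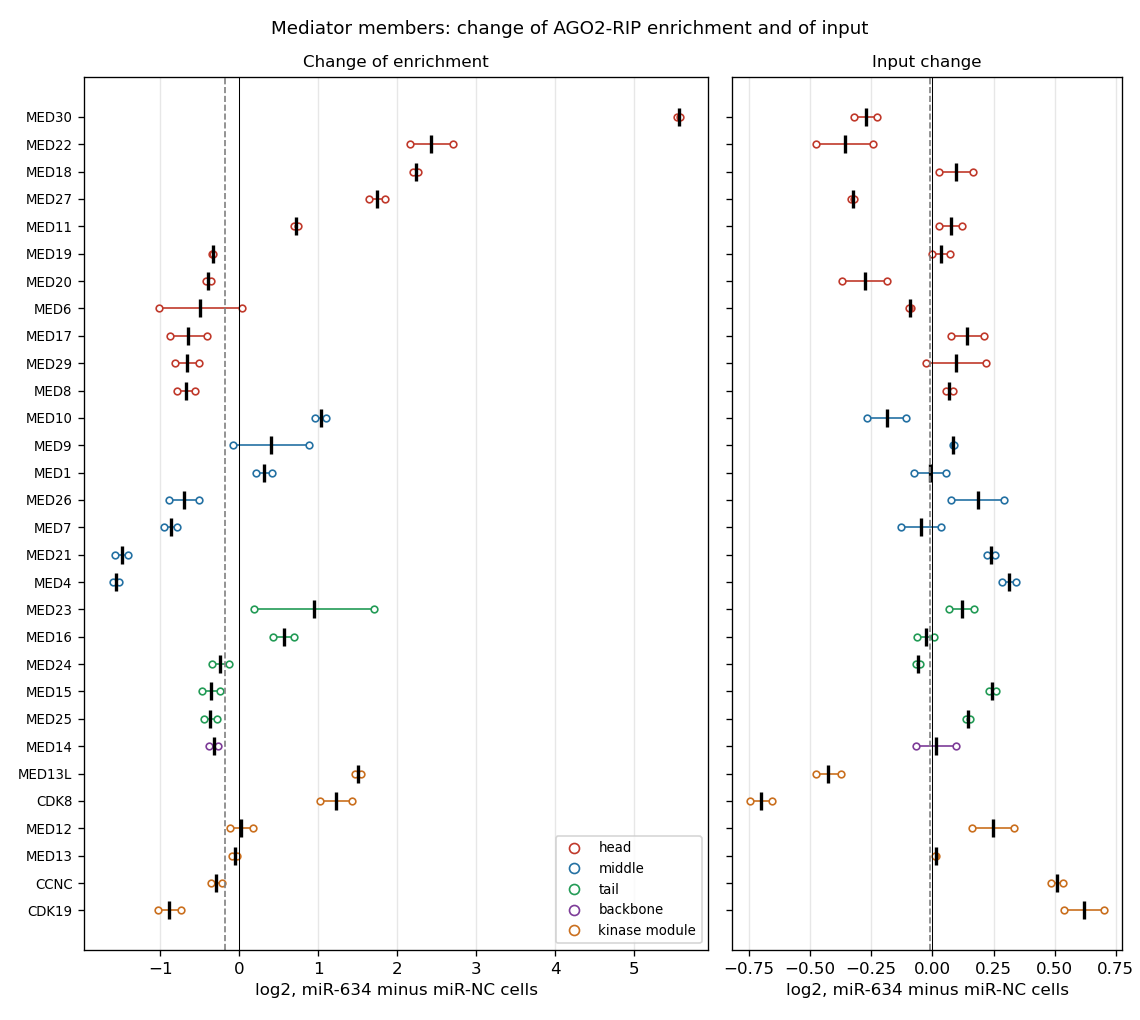
Open circles give the log2 change of enrichment (left) and the log2 change of the input level (right) of each Mediator member in the arrays numbered 1 and 2, black bars their mean and dashed lines the median of all genes; members are ordered by module. The means of change of enrichment run from -1.57 for MED4 to 5.57 for MED30, and with spike-in scaling most of the negative ones turned upward; input changes lie between -0.70 for CDK8 and 0.62 for CDK19.

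Within the kinase module, the values of paralogs lay apart. CDK8 and CDK19 are alternative kinases of the module. CDK8 had levels of -4.77 and -4.92 in the miR-NC input, -4.82 and -5.22 in the miR-NC RIP, -5.43 and -5.67 in the miR-634 input and -4.45 and -4.54 in the miR-634 RIP. Its change of enrichment was 1.23 (2.34-fold, standard error 0.22, adjusted p = 0.00489 by limma). CDK19 had -3.0 and -3.13 in the miR-NC input, -3.0 and -2.86 in the miR-NC RIP, -2.46 and -2.42 in the miR-634 input and -3.20 and -3.19 in the miR-634 RIP. Its change was -0.89 (standard error 0.10, adjusted p = 0.000794 by limma), and it was 0.20 with spike-in scaling. The difference between the kinases themselves was not tested. CCNC, the cyclin of both kinases, changed by -0.29 (adjusted p = 0.0288 by limma) and by 0.79 with spike-in scaling. MED13L, with -2.37 and -2.36 in the miR-634 input and -1.98 and -2.05 in the miR-634 RIP, changed by 1.5 (2.83-fold, standard error 0.09, adjusted p = 9.12e-05 by limma). MED13 changed by -0.06 and MED12, the activator of the kinase, by 0.02, and neither was called. MED12 was well above background on 1 of the 2 miR-NC RIP arrays.

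The input level is the denominator of the enrichment, so that a lower input in miR-634 cells by itself raises the change of enrichment. In bulk RNA, fewer transcripts per cell and fewer cells expressing a gene cannot be told apart. Limma called the input level of 4 of the 29 members (13.8%) higher in miR-634 cells, where 6.57% of all genes were called higher, and of 3 (10.3%) lower, against 7.53% of all genes. The largest differences were in the kinase module. The input level of CDK19 rose by 0.62 on the log2 scale (1.54-fold, adjusted p = 0.00688 by limma) and that of CCNC by 0.51 (1.42-fold, adjusted p = 0.00731 by limma), with levels of -1.74 and -1.85 under miR-NC and -1.25 and -1.32 under miR-634 for CCNC. The input level of CDK8 fell by 0.70 (adjusted p = 0.0406 by limma) and that of MED13L fell by 0.43 (adjusted p = 0.0154 by limma). For all 4 genes, the miR-634 input arrays did not overlap the miR-NC input arrays. The same held for members that were not called, such as MED11 and MED12, and the share over all genes is not given. MED4 and MED21 were also called higher, by 0.31 and 0.24, and MED27 lower, by -0.32. When any 1 of the 4 input arrays was omitted, between 0 and 2 members were called higher and 0 lower, and with spike-in scaling the CDK8 call alone held. A dimmer CDK8 probe showed no difference of input, with a log2 change of 0.00, in place of -0.70. For CDK8 the RIP level itself was 1.44-fold higher in miR-634 cells, against the 2.34-fold change of enrichment, whereas for MED18 the RIP level was 5.03-fold higher with an input change of 0.10.

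Of the 30 members, 10 had a second passing probe and 20 rested on 1 probe, MED30 among them. The probes of 9 of these 10 genes had a change of enrichment of one sign, the exception being MED23. The pair differed little for MED18, MED4 and MED25. It differed more for MED22, for CDK8 (2.34-fold and 1.58-fold) and for MED1, where the brighter probe gave 1.24-fold and the dimmer one 2.12-fold. MED6 was represented by a probe for NM_001284211 whose values in the miR-634 RIP, -2.48 and -1.53, differed between duplicates, and its other probe, for NM_005466, gave a change of -0.14 in place of -0.49. The change of enrichment of the members was not ordered by their abundance, with Pearson's r at -0.127 and Spearman's rho at -0.235 between the miR-NC input level and the change across the 29 members other than MED30, as a description over points that share their arrays.

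**Figure D4:**
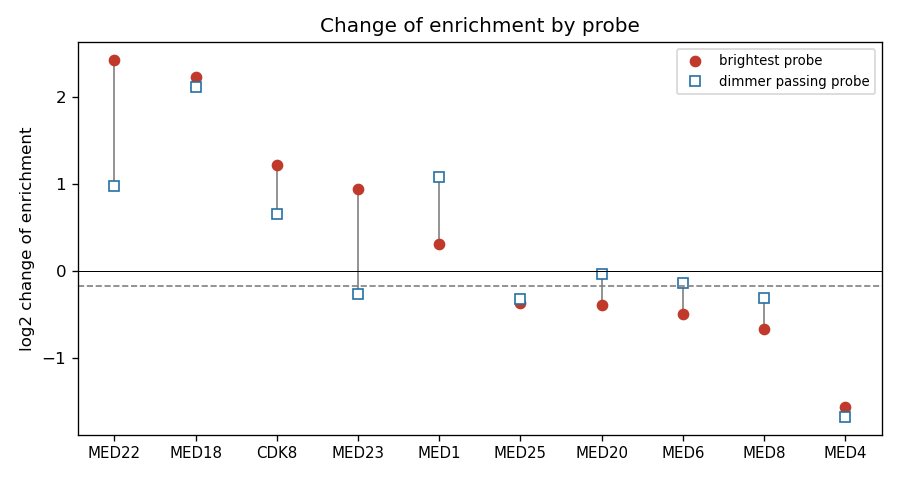
For the 10 Mediator members with a second passing probe, the log2 change of enrichment (vertical axis) is plotted for the brightest probe, which stood for the gene, and for the dimmer one; the dashed line is the median of all genes. The probes of MED18, MED4 and MED25 lie close together, while those of MED22 (2.43 and 0.98) and MED23 (0.95 and -0.26) are far apart.

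Mediator acts with the general transcription factors and RNA polymerase II at promoters and with the factors that release the paused polymerase. Of 62 genes of this machinery, 60 were measured, all but GTF2H2 and CCNT2. Limma called the change of enrichment higher for 11 (18.3%) and lower for 30 (50%) of them, against 24.8% and 34.7% of all genes. Their median change was -0.31, against -0.29 for the 29 Mediator members and -0.18 for all genes. With spike-in scaling 32 (53.3%) were called higher and 1 lower, against 60.4% and 1.37% of all genes. The largest rises were those of CDK9, the kinase that releases the paused polymerase (8.14-fold, adjusted p = 6.96e-06 by limma), and of NELFE and NELFB, subunits of the pausing factor NELF (5.70-fold and 3.24-fold, adjusted p = 1.72e-05 and 2.99e-05 by limma). The NELFE input level fell by 0.69 at the same time (adjusted p = 0.00423 by limma). The largest falls were those of TBP, the TATA-binding protein (log2 change -2.93, adjusted p = 1.55e-05 by limma), of GTF2E2, a subunit of TFIIE (-1.59, adjusted p = 3.02e-05), and of TAF10, a subunit of TFIID (-1.51, adjusted p = 2.96e-05). TBP had levels of -2.33 and -2.32 in the miR-NC input, 1.09 and 1.20 in the miR-NC RIP, -1.98 and -2.15 in the miR-634 input and -1.52 on each miR-634 RIP array, so that its enrichment in miR-NC cells was above that of every Mediator member. CDK9, in turn, stood at -1.05 on each miR-NC input array, -1.29 and -1.27 in the miR-NC RIP, -1.26 and -1.27 in the miR-634 input and 1.58 and 1.47 in the miR-634 RIP. That MED30 changed more than each of these 60 genes follows from its choice as the largest rise of all genes.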

How the data were processed

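For each array, the authors deposited the intensity of every spot from Agilent Feature Extraction (version 12.0.1.1 in the file headers, 9.1 in the submitters' processing notes), background-subtracted and detrended within the array and not normalized between arrays. The authors also deposited log2 values processed in GeneSpring, which matched the intensities scaled on the 75th percentile over all probes and centered per probe, and served as an alternative. Column medians ran from -0.44 to 0.87.

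Control and outlier spots were dropped, spots of a probe averaged, and log2 values reduced by the 75th percentile of that array, taken over the 16808 of 58201 probes well above background on all 8 arrays. No spot was saturated. RefSeq accessions named 31100 of 33080 probes that carry one, for 22435 symbols, and the other probes are unnamed here. The design is annotated on hg19, so no gene coordinates are given. Group means were fitted with limma 3.58.1 (R 4.3.3) across 13662 genes. In simulated data for these genes, with 200 changed by 1 on the log2 scale, it recovered 66.0% of them, and 5.04% of the genes it called were not changed ones. The simulation drew independent noise with the spread that limma had estimated, and changed far fewer genes than were called in the data. Both figures thus describe the fitted model and not its accuracy on these arrays. Members and lists were chosen with earlier results of these data known. The rule for genes described in detail took MED30, members called with at least a 2-fold change, the 3 highest and 3 lowest in miR-NC enrichment, and members with a called input change of at least 0.5. From the machinery list, the 3 largest rises and falls that agreed in direction in both array numbers were named. All arrays were on 1 slide in 1 scan, with input in row 1 and RIP in row 2, so slide row and RNA fraction cannot be told apart, nor slide columns and treatment. Alternatives were other scalings, filters, probe rules and tests, a replicate block and each array left out. Plots used Python 3.11.15, pandas 2.3.3 and matplotlib 3.10.9.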

Additional observations from a re-analysis of the deposited data

Results flagged for a closer look

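Enrichment was called below the input in miR-NC cells and above it in miR-634 cells for 5 members other than MED30 (17.2%), against 7.21% of all genes. By limma, their difference also passed the threshold, with changes of enrichment of 2.43 for MED22, 2.23 for MED18, 1.74 for MED27, 1.5 for MED13L and 1.03 for MED10 on the log2 scale (n = 2 arrays per group, and the same direction in the arrays of each number). MED30, with 5.57, went the same way and was not tested, since its value led to the choice of the family. CDK8 and MED16 also had means below the input with miR-NC and above it with miR-634, without a call in both. By the dimmer probes of MED22 and CDK8 there was no reversal. Their log2 enrichments were 0.56 and 1.38 with miR-NC and 1.54 and 2.04 with miR-634. The dimmer MED18 probe did reverse, with -0.29 and 1.83. With spike-in scaling, the RIP was called below the input for all 29 other members in miR-NC cells (98.2% of all genes) and for 23 in miR-634 cells (84.2% of all genes), so the reversal of sign is relative to the other genes on the array, while the rise itself held.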

How the results depend on the processing

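The 7 higher calls of change of enrichment held under every alternative fitted with limma. With spike-in scaling, the median change of all genes was 0.91, 19 members (65.5%) were called higher and 0 lower, and 32 (53.3%) and 1 of the machinery genes, against 60.4% and 1.37% of all genes. The changes that turned upward were the median member (0.79), CCNC (0.79), CDK19 (0.20), MED13 (1.03), MED14 (0.76), MED15 (0.72), MED17 (0.44), MED19 (0.75), MED20 (0.69), MED24 (0.84), MED25 (0.72), MED26 (0.38), MED7 (0.21), MED8 (0.41), MED6 (0.59) and MED29 (0.42). With it, enrichment was called higher for 0 and lower for 29 members in miR-NC cells and 0 and 23 in miR-634 cells, and input change for 0 and 1. With the authors' values and with the percentile taken over all probes, 7 of the 29 members were called lower in change of enrichment. Of all 13662 genes, 3491 and 3490 were called lower, down from 4737 in the main setting. The share of members called lower was thus no longer above that of all genes. The median change was -0.17, against -0.06 over all genes, and 2 members were called higher and 1 lower in input. Centered on the median gene, an alternative added after seeing the data, 7 members and 3513 of all 13662 genes were called lower, and the median change of the members was -0.12. With no filter, input calls were 2 higher and 1 lower. The shares of all genes with a called input change are not given for these alternatives.

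MED30 change of enrichment was 5.35 with normexp and quantile normalization, 5.61 with median scaling, 5.68 with the authors' values and with the percentile of all probes, 6.65 with spike-in scaling and 5.74 when centered. With an array left out, it ranged from 5.51 to 5.62, the median change from -0.35 to -0.18, higher calls of input from 0 to 5 and lower ones from 0 to 3.

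The replicate numbers did not pair the arrays (correlations of deviations from -0.04 to 0.08), and with the replicate block 2 members were called higher in input.

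Student's t-test is named in the study's methods for its statistics in general, while its RIP genes were selected by a fold cutoff. After Benjamini-Hochberg adjustment, the t-test called 6 members lower in change of enrichment, and 0 higher and 0 lower for input change and for enrichment in either kind of cells. For enrichment and its change it used ratios matched by array number, although the numbers did not pair the arrays. With 2 arrays a group it has few degrees of freedom, so 0 calls after adjustment carries little weight. Unadjusted, the t-test called 4 higher and 3 lower in miR-NC enrichment, 7 higher in miR-634 enrichment, and 7 higher and 5 lower in input. The shares of all genes called by the t-test are not given, so its counts cannot be read as a result about the members. MED29, MED23 and MED1 were limited by signal close to background.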
